A study of Mus musculus with 48 samples.

Results

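The Period genes Per1, Per2 and Per3 encode repressors of the circadian clock, and the measurements described here are their transcript abundances and ribosome footprint abundances around the clock in mouse kidney. The 3 genes were chosen by name and matched through their Ensembl identifiers, and all 3 were among the 12423 genes with values in both assays and among the 11863 genes tested. Kidneys were collected from male C57BL/6JRj mice, 11 to 12 weeks old, that had been entrained for 2 weeks to 12 h of light and 12 h of dark, with lights on at zeitgeber time 0 (ZT0) and off at ZT12. No other treatment or genotype was compared. Samples were taken at 12 time points, every 2 h from ZT0 to ZT22, with 2 replicates per time point. Each replicate was a lysate pool of 2 mice, and the lysate contained cycloheximide, which holds ribosomes on the transcript. Each of the 24 pools gave a total RNA library (RNA-seq) and a library of ribosome-protected fragments (RPF-seq), so that 48 libraries were compared. Since replicates are separate pools of whole kidneys, a change in the number of expressing cells and a change in the amount per cell cannot be told apart. The p-values measure the spread between pools. In comparisons of daily level and of TE (translation efficiency, footprints over RNA), that spread is over all 24 pools and includes changes with time of day.

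In the mammalian clock, the activators BMAL1 (encoded by Arntl) and CLOCK bind E-box sequences and drive transcription of the Period and Cryptochrome genes. The PER proteins accumulate, join with CRY proteins, enter the nucleus and inhibit their own activators, and they are later phosphorylated by casein kinases and degraded, which closes the loop. Per1 and Per2 are needed for the loop, and both also respond to signals such as glucocorticoids and cAMP. Per3 is closely related in sequence and is dispensable for rhythms in mice. The timing and amount of PER synthesis are therefore of interest in a peripheral organ such as the kidney, where transport and blood flow change over the day.

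In the GRCm38 mouse genome (GENCODE vM21 annotation), Per1 (ENSMUSG00000020893) lies on the plus strand at chr11:69095217-69109960. Per2 (ENSMUSG00000055866) lies on the minus strand at chr1:91415982-91459324, and Per3 (ENSMUSG00000028957) lies on the minus strand at chr4:151003652-151044665. The 250 bases upstream of annotated start sites of Per1 and Per3 are shown because the motifs through which the clock and cAMP act on these genes can be looked for in them. They were taken from RefSeq (GRCm38.p6), which held 2 start sites of Per1 and 1 of Per3. They are written 5′ to 3′ on the gene's strand, with matches on either strand to CACGTG (E-box), TTATGNAA (D-box, bound by the PAR bZIP factors and NFIL3), and TGACG (the core of the cAMP response element, CRE) in capitals.
Per1 upstream window 1, chr11:69098699-69098948: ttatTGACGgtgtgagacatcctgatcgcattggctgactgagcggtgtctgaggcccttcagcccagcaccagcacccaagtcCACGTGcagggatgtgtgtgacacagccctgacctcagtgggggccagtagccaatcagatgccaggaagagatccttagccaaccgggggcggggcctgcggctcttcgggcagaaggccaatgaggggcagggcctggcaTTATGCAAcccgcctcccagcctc
Per1 upstream window 2, chr11:69099902-69100151: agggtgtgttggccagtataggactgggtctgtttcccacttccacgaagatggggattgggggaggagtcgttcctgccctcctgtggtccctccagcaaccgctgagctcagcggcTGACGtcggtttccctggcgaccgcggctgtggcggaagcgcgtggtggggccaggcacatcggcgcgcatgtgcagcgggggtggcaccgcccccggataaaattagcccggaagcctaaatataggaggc
Per3 upstream window, chr4:151044666-151044915: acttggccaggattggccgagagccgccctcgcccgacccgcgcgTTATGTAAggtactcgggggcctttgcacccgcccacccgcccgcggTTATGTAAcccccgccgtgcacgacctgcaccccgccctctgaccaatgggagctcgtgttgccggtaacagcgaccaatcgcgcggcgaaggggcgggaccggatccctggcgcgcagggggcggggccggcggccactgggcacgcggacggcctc

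Window 1 of Per1 lay within the span of 1 other annotated coding transcript, and window 2 within the span of 2, in both cases in intronic sequence apart from 1 base at the end of window 1. The Per3 window lay outside the annotated gene. Window 1 of Per1 held an E-box 166 bases upstream of the start site and a D-box 24 bases upstream, and it also held the CRE core 246 bases upstream. Window 2 of Per1 held the CRE core 132 bases upstream and neither of the other motifs. The Per3 window held 2 D-boxes, 205 and 158 bases upstream, and no E-box or CRE core. The full CRE, TGACGTCA, which contains the core, was in none of these windows. Of 32851 upstream windows of the same length in the RefSeq set, 6.02% held the E-box, 3.07% held a D-box, 17.8% held the CRE core and 1.55% held the full CRE. A match describes the letters only and does not show that a factor binds there.

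Transcript and footprint abundances are given as RPKM, the number of reads per length of coding sequence scaled for library size, on which genes of different length can be compared. Per1 transcripts were scarce in the first hours of light, at 2.98 and 3.18 RPKM in the 2 pools at ZT0, 3.50 and 2.93 at ZT2, 3.04 and 2.56 at ZT4, and 2.68 and 4.91 at ZT6. They rose to 7.51 and 8.05 RPKM at ZT8 and 13.2 and 11.5 at ZT10, and remained at 12.6 and 10.5 at ZT12 and 9.43 and 12.5 at ZT14. They then fell to 9.19 and 6.44 RPKM at ZT16, 4.35 and 5.22 at ZT18, 3.35 and 2.78 at ZT20, and 4.37 and 3.20 at ZT22. Per1 RNA thus had a plateau around lights-off: the pools of ZT10, ZT12 and ZT14 overlapped and lay above every pool of the other time points.

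Per1 footprints also rose before lights-off and fell during the dark phase, mostly at a lower RPKM than the RNA. They measured 1.74 and 2.22 RPKM at ZT0, 2.42 and 2.41 at ZT2, 2.15 and 2.55 at ZT4, and 2.07 and 3.75 at ZT6, then 4.32 and 5.27 at ZT8. The highest values were 9.96 and 10.6 RPKM at ZT10 and 9.44 and 12.5 at ZT12, before 6.51 and 9.31 at ZT14 and 7.80 and 5.97 at ZT16. The late-night values were 4.96 and 4.99 RPKM at ZT18, 3.38 and 2.52 at ZT20, and 3.84 and 3.14 at ZT22. The mean footprint level was lowest at ZT0, whereas the mean transcript level was lowest at ZT4, but the pools of ZT0 and ZT4 overlapped in both assays.

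Per2 transcripts had the largest observed range of the 3 genes. They measured 5.38 and 4.89 RPKM at ZT0, 3.80 and 1.90 at ZT2, 3.14 and 1.84 at ZT4, and 3.51 and 4.22 at ZT6. They climbed through 8.69 and 10.5 RPKM at ZT8, 12.0 and 10.9 at ZT10, and 16.4 and 14.5 at ZT12 to 28.9 and 27.7 at ZT14. Unlike the plateau of Per1, both Per2 pools at ZT14 stood above all others, and the next highest were those of ZT16, at 19.4 and 16.8 RPKM. The decline continued through 15.9 and 14.1 RPKM at ZT18, 10.7 and 11.0 at ZT20, and 5.97 and 4.31 at ZT22. From the lowest time point mean, 2.49 RPKM at ZT4, to the highest, 28.3 RPKM at ZT14, Per2 RNA changed 11.4-fold, against 4.41-fold for Per1 and 5.99-fold for Per3 between their own extreme means.

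Per2 footprints kept the order of the 12 time points seen in RNA. They measured 3.16 and 3.43 RPKM at ZT0, 2.68 and 1.10 at ZT2, 1.98 and 1.35 at ZT4, and 2.56 and 2.79 at ZT6. The rise ran through 4.81 and 6.00 RPKM at ZT8, 7.40 and 8.56 at ZT10, and 9.64 and 10.9 at ZT12 to 15.2 and 17.1 at ZT14. The fall ran through 12.95 and 10.9 RPKM at ZT16, 10.5 and 9.97 at ZT18, 7.19 and 8.25 at ZT20, and 4.20 and 3.11 at ZT22. Ranked by their means, 5 of the 11 pairs of neighbouring time points overlapped in each assay, and the pools of ZT14 overlapped no other time point in either. The replicates disagreed most at ZT2, by 2.00-fold in RNA and 2.44-fold in footprints.

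Per3 transcripts were tightly reproducible. They measured 2.43 and 2.53 RPKM at ZT0, 2.55 and 2.15 at ZT2, 4.47 and 4.38 at ZT4, 5.69 and 6.50 at ZT6, and 10.7 and 12.1 at ZT8. The highest values were 13.5 and 14.5 RPKM at ZT10 and 14.9 and 13.2 at ZT12, followed by 12.9 and 11.1 at ZT14. The fall ran through 9.18 and 7.62 RPKM at ZT16, 6.32 and 6.00 at ZT18, 3.35 and 3.54 at ZT20, and 2.81 and 2.49 at ZT22. Per3 RNA had thus left its trough by ZT4, when Per1 and Per2 RNA were at their lowest means, and the replicates differed by at most 1.20-fold at any time point.

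Per3 footprints were sparse in every pool. They measured 0.580 and 0.387 RPKM at ZT0, 0.683 and 0.277 at ZT2, 0.774 and 1.15 at ZT4, 1.13 and 1.57 at ZT6, and 2.47 and 2.41 at ZT8. They reached 2.88 and 2.89 RPKM at ZT10 and 3.32 and 3.20 at ZT12, then 2.14 and 2.52 at ZT14. The late values were 1.60 and 1.95 RPKM at ZT16, 1.17 and 0.965 at ZT18, 0.929 and 0.588 at ZT20, and 0.826 and 0.474 at ZT22. Even at ZT12, when Per3 RNA stood at a mean of 14.1 RPKM, its footprints reached a mean of 3.26 RPKM, below the 3.49 RPKM of Per1 footprints at ZT22, when Per1 RNA was at 3.78.

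**Figure D1:**
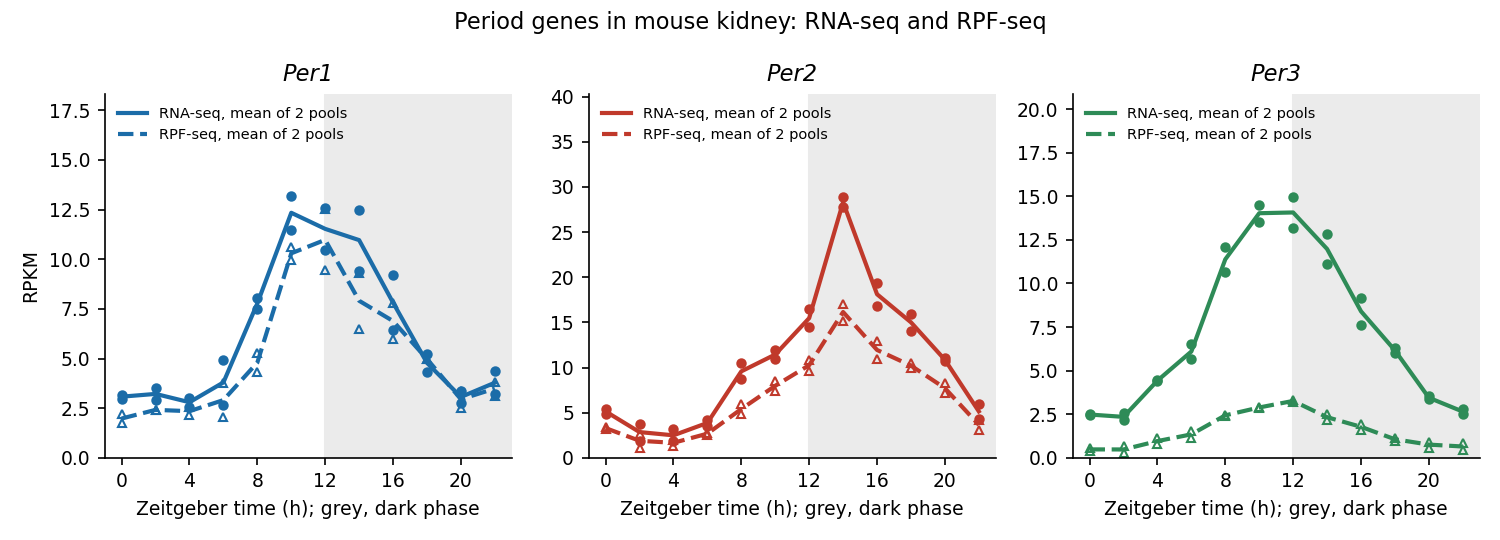
RNA-seq (filled circles, solid line) and RPF-seq (open triangles, dashed line) values in RPKM for Per1, Per2 and Per3 against zeitgeber time in hours; points are pools of 2 mice, lines join the means of 2 pools, each panel has its own vertical scale, and grey marks the dark phase. Per1 and Per3 RNA were highest at ZT10 and ZT12, Per2 RNA peaked at ZT14 at 28.3 RPKM, and Per3 footprints stayed at or below 3.32 RPKM.

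The depth behind these values differed between genes. The coding sequence of Per3 (3342 bases) drew an estimated 27.6 to 289 footprints per library (median 109), against 98.8 to 1100 (median 495) for Per2 (3774 bases). The Per1 footprint estimate was 151 to 1232 (median 366) with the longest annotated coding sequence, 3876 bases. RNA-seq reads ranged from 106 to 1632 for Per1, 110 to 2077 for Per2 and 87.5 to 1671 for Per3. The coding length behind the deposited Per1 values is not known, and comparisons of its level with Per2 and Per3 rest on it. These read numbers are approximate. Per gene and assay, 0 to 12.5% of them fell within 0.05 of a whole number, about the share that arbitrary fractions would give. That share therefore does not bear out the read numbers or the coding lengths. For the scarce genes from which depth was estimated, the lowest share in a library was 80.7%, but depth was chosen to make those reads whole. At the median depth, counting error alone gives a coefficient of variation of 9.58% for Per3 footprints and between 4.50% and 5.92% for the other gene and assay pairs. The median difference between replicates was 1.30-fold for Per3 footprints and 1.13-fold for Per3 RNA, 1.25-fold and 1.20-fold for Per1, and 1.15-fold and 1.14-fold for Per2. Relative sequencing depth, estimated from the size of the RPKM step that 1 read makes, ranged from 0.597 to 2.04 among RNA libraries and from 0.700 to 1.58 among RPF libraries.

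To ask whether each gene was rhythmic, a 24-h cosine was fitted to log2(RPKM + 0.1) of every gene with limma, and a rhythm was called at a Benjamini-Hochberg adjusted p below 0.05 and a fitted peak-to-trough fold of at least 1.5. All 3 Period genes were called in RNA-seq, where 10.2% of all genes tested were called, and all 3 in RPF-seq, where 7.58% were called. Fitted folds are on the log2(RPKM + 0.1) scale and follow the smooth cosine, so they are smaller than the observed extremes where the peak is sharp, as for Per2. Per1 RNA had a fitted fold of 4.21 (log2 difference 2.07, SE 0.19, adjusted p = 2.1e-08) with a peak at ZT12.30 (decimal hours, SE 0.34 h). Per2 RNA had a fitted fold of 7.73 (log2 difference 2.95, SE 0.19, adjusted p = 3.3e-11) with a peak at ZT14.65 (SE 0.24 h). Per3 RNA had a fitted fold of 6.09 (log2 difference 2.61, SE 0.09, adjusted p = 1.3e-16) with a peak at ZT11.66 (SE 0.13 h), and its adjusted p was the smallest of the 3 genes.

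The fitted fold in RPF-seq was 4.45 for Per1 (log2 difference 2.15, SE 0.19, adjusted p = 1.6e-08), with a peak at ZT12.94 (SE 0.33 h). It was 7.38 for Per2 (log2 difference 2.88, SE 0.17, adjusted p = 1.4e-11), with a peak at ZT14.79 (SE 0.23 h). It was 5.59 for Per3 (log2 difference 2.48, SE 0.18, adjusted p = 3.6e-10), with a peak at ZT11.54 (SE 0.27 h). The size of the Per3 footprint rhythm depended on the pseudocount, with a fold of 2.77 at a pseudocount of 1 and 6.46 at 0.01, and it was 4.25 with replicate 1 alone and 7.39 with replicate 2 alone, called in each case. The share of variance that the cosine accounted for (R2) was 0.977 for Per3 RNA, 0.906 for Per2 RNA and 0.833 for Per1 RNA.

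The order of the peaks was Per3, Per1, Per2 in both assays, and Per2 was the late gene. To test the order, peak times were compared within libraries by permutation (100000 swaps, two-sided), and p-values were adjusted over a family of 9 comparisons, 6 between genes and 3 between assays. In RNA-seq, Per2 peaked 2.99 h after Per3 (95% interval 2.44 to 3.54 h) and 2.35 h after Per1 (1.53 to 3.16 h), both at permutation p = 1e-05, the smallest that these resamples can give (adjusted p = 3.0e-05). Per1 peaked 0.64 h after Per3 in RNA-seq, a difference within the error (95% interval −0.15 to 1.44 h, permutation p = 0.136, adjusted p = 0.175).

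In RPF-seq all 3 genes were separated. Per2 footprints peaked 3.25 h after those of Per3 (95% interval 2.57 to 3.92 h, permutation p = 1e-05, adjusted p = 3.0e-05). Per2 footprints peaked 1.85 h after those of Per1 (0.93 to 2.77 h, permutation p = 0.00021, adjusted p = 0.00047). Per1 footprints peaked 1.40 h after those of Per3 (0.58 to 2.22 h, permutation p = 0.0038, adjusted p = 0.0069). That last separation rests on replicate 1: with replicate 2 alone it was 0.99 h and no longer past the threshold (adjusted p = 0.242), and with replicate 1 alone it was 1.77 h (adjusted p = 0.036). The Per2 to Per1 distance in RPF-seq was 1.5 h with replicate 1 alone (adjusted p = 0.055) and 2.21 h with replicate 2 alone (adjusted p = 0.0012). When peaks were read from a curve with an added 12-h harmonic, the order of the peaks in both assays was the same, but the gene-to-gene differences called with the cosine no longer passed the threshold (adjusted p from 0.0809 to 0.172).

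The time between the transcript peak and the footprint peak shows whether ribosome engagement lagged behind the RNA. Per2 footprints peaked 0.14 h after Per2 RNA (95% interval −0.10 to 0.38 h, permutation p = 0.243, adjusted p = 0.273). Per3 footprints peaked 0.12 h ahead of Per3 RNA (difference −0.12 h, 95% interval −0.62 to 0.39 h, permutation p = 0.613, adjusted p = 0.613). No lag was detectable for these genes, and the intervals leave room for one of up to 0.38 h in Per2 and 0.39 h in Per3. For Per1 the footprints peaked 0.64 h after the RNA (0.08 to 1.19 h, permutation p = 0.0205, adjusted p = 0.0307), which is less than the 2 h between samples. The Per1 difference passed the threshold only when both replicates and a log-scale cosine were used: it was 0.94 h in replicate 1 (adjusted p = 0.0789) and 0.34 h in replicate 2 (adjusted p = 0.406). It was 0.50 h with a cosine on the linear scale (adjusted p = 0.0713) and 0.23 h with a 12-h harmonic (adjusted p = 0.531).

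The time point means of Per1 are set side by side here. From ZT10 to ZT14 the mean Per1 RNA level moved from 12.3 to 11.5 to 11.0 RPKM, while the mean footprint level moved from 10.3 to 11.0 to 7.91. Between ZT16 and ZT22 the mean footprints went from 6.89 to 3.49 RPKM and the mean RNA from 7.81 to 3.78. RPKM is scaled within each assay, so similar values in both do not mean similar amounts. Across the 12 time point means, the correlation of log2 Per1 footprints with log2 RNA was 0.961 at no lag and 0.861 when RNA was set against footprints 2 h later, against 0.687 for footprints 2 h earlier. The same values were 0.995, 0.822 and 0.792 for Per2 and 0.992, 0.828 and 0.859 for Per3. These correlations describe 12 points that share pools and a common 24-h shape.

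**Figure D2:**
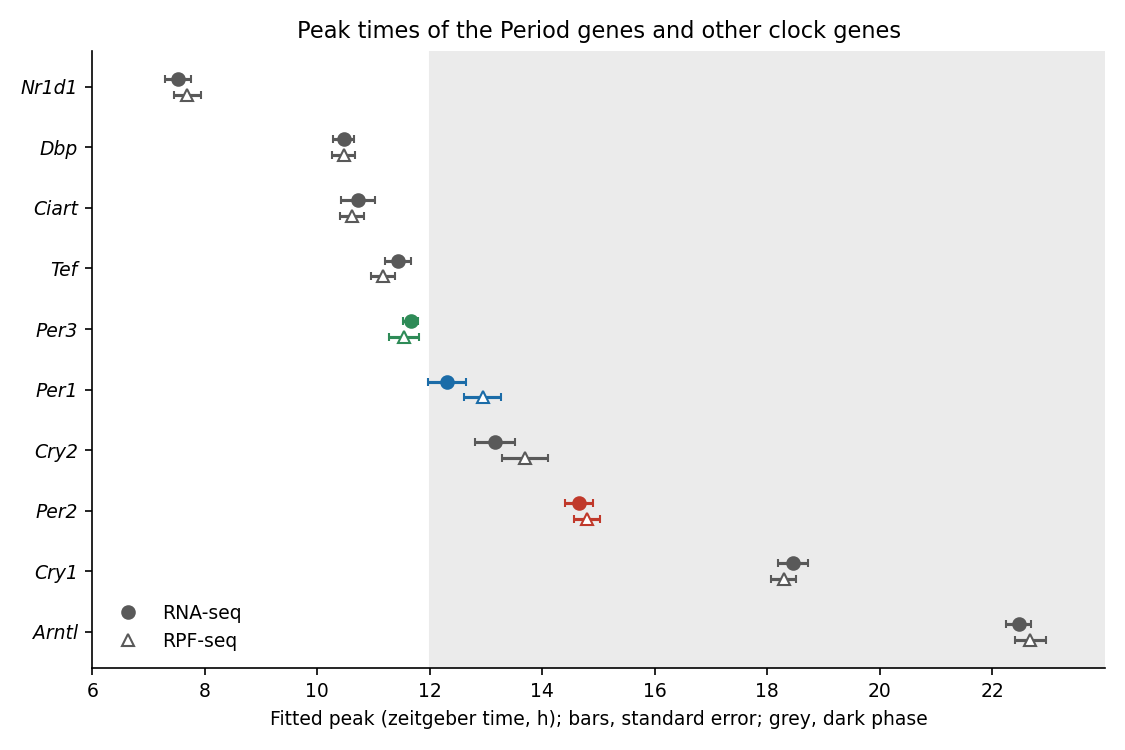
Fitted peak times in zeitgeber hours for the Period genes (coloured) and 7 other clock genes (grey) in RNA-seq (filled circles) and RPF-seq (open triangles); bars are standard errors, genes are ordered by their RNA peak, and grey shading marks the dark phase. Per3 and Per1 sat at either side of lights-off, Per2 followed at ZT14.65 in RNA, and the RNA and RPF peaks of each plotted gene lay within 0.64 h of each other. Hlf and Clock, whose RNA and RPF peaks were further apart, are not plotted.

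Translation efficiency (TE) was computed by dividing the footprint RPKM of a gene by its transcript RPKM in the same pool. It set Per3 apart from Per1 and Per2 by more than it changed over the day. Between extreme time point means, TE changed 1.71-fold for Per1, 1.26-fold for Per2 and 1.40-fold for Per3. Per1 and Per2 were 1.24-fold apart, no more than these changes. TE values are relative within these libraries: the median over all genes tested was 0.956. TE averaged 0.832 ± 0.163 for Per1, 0.661 ± 0.070 for Per2 and 0.211 ± 0.043 for Per3 (mean ± SD, n = 24 pools). Over the 24 pools TE ran from 0.576 to 1.19 (median 0.796) for Per1, from 0.527 to 0.784 (median 0.665) for Per2, and from 0.129 to 0.294 (median 0.206) for Per3. Per3 had the lowest TE of the 3 genes in 24 of 24 pools, with no overlap with the other genes, and Per1 had the highest in 21 of 24.

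On the log2 scale, Per3 TE was 1.88 below that of Per1 (SD 0.37 over 24 pools) and 1.57 below that of Per2 (SD 0.28), or 0.272-fold and 0.337-fold. Both differences had a sign-flip permutation p of 1e-05, the smallest possible here (adjusted p = 1.7e-05 over 12 comparisons of level and TE). Per1 TE was 1.24-fold that of Per2 (log2 difference 0.31, SD 0.21), higher in 22 of 24 pools on the log2(RPKM + 0.1) scale used for these tests and in 21 by the plain ratio (permutation p = 1e-05, adjusted p = 1.7e-05). Against the median TE of all genes in the same pool, Per3 was at 0.236-fold (lower in 24 of 24 pools) and Per2 at 0.700-fold (lower in 24 of 24), each with permutation p = 1e-05 and adjusted p = 1.7e-05. Per1 was at 0.867-fold (lower in 18 of 24 pools, permutation p = 0.0016, adjusted p = 0.0021), and with replicate 2 alone that difference was −0.12 on the log2 scale and not past the threshold (adjusted p = 0.155). By mean log2 TE, 2.67% of the 11863 genes were lower than Per3, 28.4% were lower than Per2 and 40.3% were lower than Per1.

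**Figure D3:**
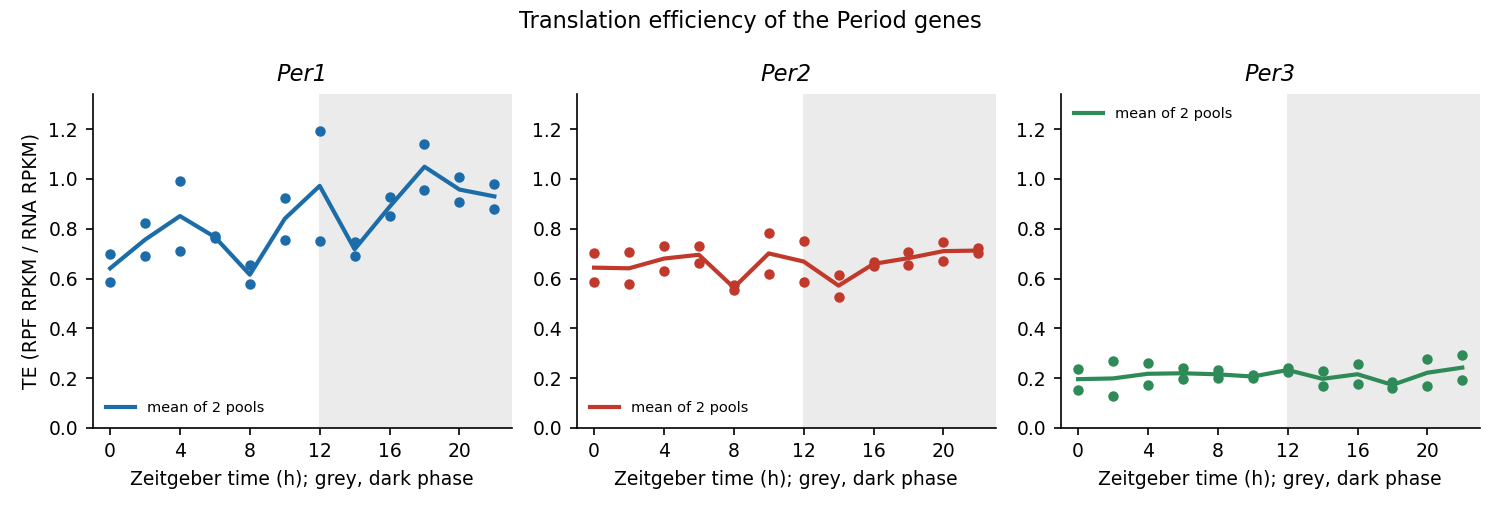
Translation efficiency (RPF RPKM over RNA RPKM) of Per1, Per2 and Per3 against zeitgeber time in hours, on a common vertical scale; points are pools of 2 mice, lines join the means of 2 pools, and grey marks the dark phase. Per3 stayed between 0.129 and 0.294, Per2 between 0.527 and 0.784, and Per1 ranged most widely, from 0.576 to 1.19.

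No 24-h rhythm in TE was called for any of the 3 genes by limma, while 17.1% of all genes tested were called at an adjusted p below 0.05, and none of the 3 had an unadjusted p below 0.05. That background of TE calls depended on having both replicates: 2028 genes were called with all 24 pools, 0 with replicate 2 alone and 2 with replicate 1 alone, where 1858 and 2545 genes had an unadjusted p below 0.05. Per1 came nearest, with a fitted TE fold of 1.28 (log2 difference 0.36, SE 0.14, limma adjusted p = 0.153, unadjusted 0.053). Fitted TE folds were 1.09 for Per2 (adjusted p = 0.550) and 1.11 for Per3 (adjusted p = 0.742). An Akaike criterion in place of the test chose the cosine for Per1 and not for the others. A pseudocount of 1 gave Per3 a TE rhythm of 1.72-fold (adjusted p = 9.9e-05), since a pseudocount close to the median Per3 footprint value of 1.16 RPKM pulls the ratio up where RNA and footprints are both low.

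The pools behind the Per1 profile were as follows. Per1 TE was 0.585 and 0.697 in the 2 pools at ZT0, 0.690 and 0.823 at ZT2, 0.709 and 0.993 at ZT4, 0.770 and 0.763 at ZT6, 0.576 and 0.655 at ZT8, and 0.755 and 0.925 at ZT10. In the dark phase it was 0.750 and 1.19 at ZT12, 0.690 and 0.745 at ZT14, 0.849 and 0.927 at ZT16, 1.14 and 0.956 at ZT18, 1.01 and 0.908 at ZT20, and 0.880 and 0.981 at ZT22. The medians were 0.732 over the 12 light-phase pools and 0.918 over the 12 dark-phase pools, and the ranges overlapped. Time points ranked by mean TE overlapped with their neighbours in 11 of 11 cases for each Period gene. Per1 and Per2 both had their lowest mean TE at ZT8, at 0.615 and 0.564, while their RNA was rising. The median TE of all genes was 0.953 in the light phase and 0.943 in the dark phase, and median relative depth was 1.14 against 0.812 for RNA libraries and 1.18 against 0.909 for RPF libraries. The part of depth in the Per1 profile was not tested.

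The daily level of the Period genes was ordered differently in RNA and in footprints. Averaged over the 24 pools, RNA was 6.24 ± 3.68 RPKM for Per1, 10.7 ± 7.53 for Per2 and 7.29 ± 4.46 for Per3 (mean ± SD, where the SD is mostly the daily change). Footprints averaged 5.16 ± 3.17 RPKM for Per1, 6.90 ± 4.53 for Per2 and 1.54 ± 0.968 for Per3. Per3 RNA was 1.12-fold that of Per1, a difference that did not pass the threshold (log2 difference 0.16, SD 0.42, higher in 16 of 24 pools, permutation p = 0.0727, adjusted p = 0.0727). That comparison passed on the ratio of mean RPKM (log2 0.22, permutation p = 0.0066) and with a pseudocount of 1 (0.15, adjusted p = 0.0477). In footprints Per3 was 0.304-fold of Per1 and 0.246-fold of Per2, lower in 24 of 24 pools in both cases (permutation p = 1e-05, adjusted p = 1.7e-05).

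Per1 was below Per2 in RNA (0.651-fold, lower in 19 of 24 pools, permutation p = 0.00043, adjusted p = 0.00064) and less so in footprints (0.807-fold, lower in 16 of 24, permutation p = 0.0388, adjusted p = 0.0423). Per3 RNA was 0.729-fold of Per2 RNA (lower in 15 of 24 pools, permutation p = 0.0152, adjusted p = 0.0182). With replicate 2 alone, these 3 differences kept their direction but missed the threshold, with adjusted p = 0.0649 for Per1 and Per2 in RNA, 0.434 for Per1 and Per2 in footprints and 0.194 for Per3 and Per2 in RNA. Among all genes tested, 27.8% had a lower mean RNA level than Per3, but 8.94% had a lower mean footprint level. For Per1 the same shares were 24.8% and 27.4%, and for Per2 they were 37.3% and 33.8%.

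The make-up of the Period pool turned over during the day. The summed RNA of the 3 genes was lowest at ZT2 (8.42 RPKM) and highest at ZT14 (51.2 RPKM), a 6.09-fold change, and the summed footprints ran from 4.78 to 26.4 RPKM at the same time points, a 5.52-fold change. In RNA, Per3 was the largest contributor from ZT4 (45.9% of the sum, mean of 2 pools) to ZT10 (37.1%), and Per2 from ZT12 (37.7%) to ZT0, with its largest share at ZT20 (62.5%). At ZT2 Per1 had the largest mean share of RNA (38.8%), but Per2 was largest in replicate 1 (38.6%) and Per1 in replicate 2 (42.0%). In footprints, Per1 was the largest contributor at ZT2 (52.8% of the sum), ZT4 (47.2%), ZT6 (41.1%), ZT10 (48.7%) and ZT12 (44.6%) by the mean of 2 pools, and Per2 at the other time points. The pools disagreed on the largest contributor at ZT2, ZT6, ZT12 and ZT22, and in both pools it was Per1 at ZT4 and ZT10. Per2 made up 61.4% of footprints at ZT14 and 67.6% at ZT20. Per3 contributed between 19.8% and 45.9% of Period RNA but between 6.54% and 19.4% of Period footprints. These shares compare read density per length of coding sequence and were not tested.

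**Figure D4:**
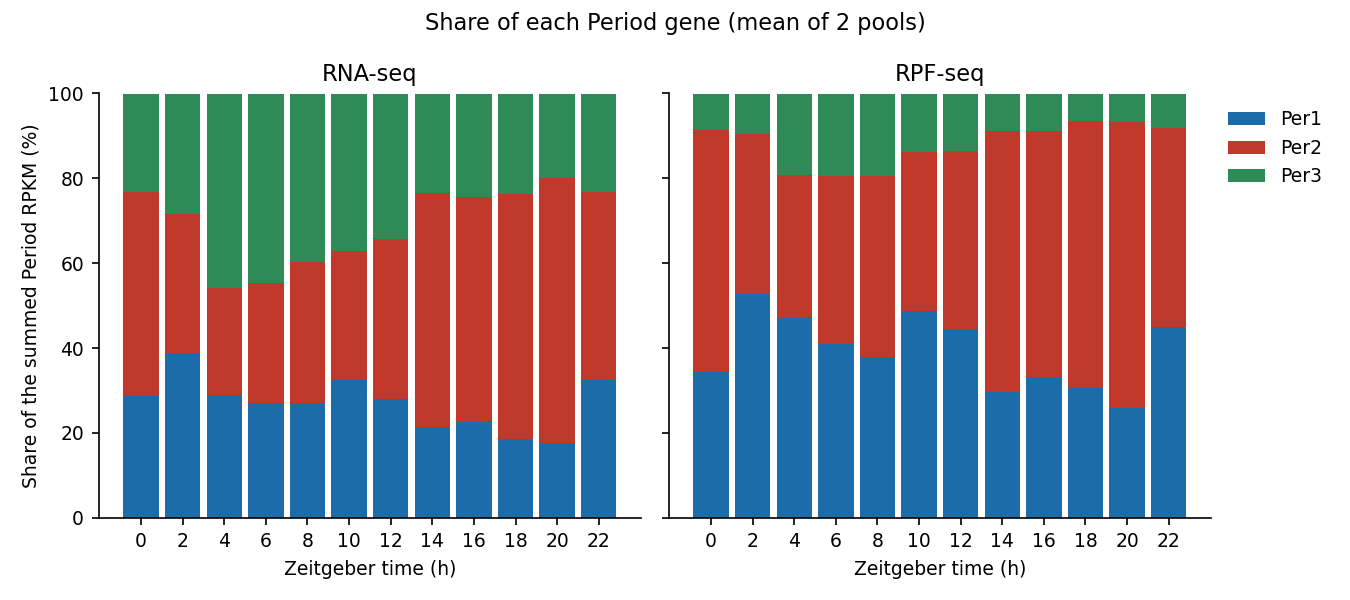
Share of each Period gene in the summed Period RPKM (percent, vertical axis) at each zeitgeber time in hours, for RNA-seq (left) and RPF-seq (right); bars are means of 2 pools. Per3 held 45.9% of the RNA but 19.3% of the footprints at ZT4, and Per2 held most of both from ZT14 to ZT20.

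The binding partners of PER and the factors that turn it over were compared next. Of 8 such genes tested, 3 were called rhythmic in RNA-seq and the same 3 in RPF-seq: Cry1, Cry2 and Fbxl21. The first 2 encode core repressors and the last an F-box protein that acts on CRY. Here and in the clock lists below, counts stand against 10.2% of all genes tested called in RNA-seq and 7.58% in RPF-seq. Cry2 RNA peaked at ZT13.16 (2.07-fold) and its footprints at ZT13.69 (2.14-fold), between Per1 and Per2. Cry1 RNA peaked at ZT18.46 (7.04-fold) and its footprints at ZT18.29 (8.38-fold), after all Period genes. The kinases Csnk1d and Csnk1e, which phosphorylate PER, were not called, with RNA folds of 1.07 and 1.08. The F-box genes Btrc (1.33) and Fbxw11 (1.09) were not called either, but in both assays they missed only the fold minimum. For Btrc the limma adjusted p was 0.00064 in RNA (peak at ZT5.71) and 0.025 in RPF. For Fbxw11 it was 0.045 and 0.044. TE calls had no fold minimum, so a TE call on these genes does not mean that their RNA was flat. A TE rhythm was called for Btrc (1.37-fold, limma adjusted p = 0.0061) and Fbxw11 (1.26-fold, limma adjusted p = 0.0197) as well as for Cry1. In TE, 17.1% of all genes tested were called, a background that was lost with either replicate alone. The ratio of summed Period to summed Cry1 and Cry2 footprints was lowest at ZT22 (0.434, mean of 2 pools) and highest at ZT12 (1.32), and the ratio for RNA ran from 0.586 at ZT22 to 2.39 at ZT10.

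The RNA of the activators peaked late in the dark phase, after all Period genes. All 3 of Arntl, Clock and its paralog Npas2 were called in both assays, with RNA peaks at ZT22.47 (24.98-fold), ZT21.55 (1.64-fold) and ZT23.73 (24.9-fold). Among the nuclear receptors that act on Arntl transcription, Nr1d1 and Nr1d2 were called in both assays. Nr1d1, which encodes the repressor REV-ERBα, peaked at ZT7.52 in RNA (21.7-fold), ahead of every Period gene, and Nr1d2 at ZT10.20 (4.84-fold), while Rora was not called in either assay (1.14-fold in RNA).

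The other repressors under E-box control were all called in both assays: Ciart at ZT10.72 in RNA (27.4-fold), Bhlhe41 at ZT11.02 (3.82-fold) and Bhlhe40 at ZT13.60 (1.76-fold). All 4 genes of the PAR bZIP group and Nfil3, whose products bind D-boxes, were called in both assays. Dbp RNA peaked at ZT10.46 (42.1-fold), Tef at ZT11.43 (2.87-fold), Hlf at ZT14.65 (1.81-fold) and Nfil3, a repressor at the same sites, at ZT21.51 (8.43-fold). Hlf footprints peaked at ZT12.29, 2.36 h ahead of Hlf RNA. Clock footprints peaked at ZT22.65, 1.10 h after Clock RNA. Neither offset was tested. Over these clock groups the RNA fitted folds of the Period genes, from 4.21 to 7.73, were below those of Dbp, Ciart, Arntl, Npas2 and Nr1d1 and above those of Cry2, Clock, Tef, Hlf and Bhlhe40.

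Genes that respond to systemic signals known to act on Period genes were also listed. Among these, too, counts stand against the 10.2% of all genes tested that were called in RNA-seq and the 7.58% in RPF-seq. Of 7 glucocorticoid targets, 5 were called in RNA-seq and 4 in RPF-seq. Tsc22d3, which encodes the glucocorticoid-induced leucine zipper GILZ, peaked at ZT15.73 in RNA (4.37-fold), Sgk1 at ZT15.98 (2.64-fold), Zbtb16 at ZT13.42 (3.31-fold), Errfi1 at ZT15.62 (1.72-fold) and Dusp1 at ZT10.78 (1.61-fold). Fkbp5 was called in RPF-seq (2.01-fold) but not in RNA-seq (1.45-fold), and its TE rhythm was 1.48-fold (limma adjusted p = 0.0076). Klf9 was called in neither assay (1.28-fold in RNA). Of 6 CREB targets tested, 3 were called in RNA-seq (Junb, Nr4a1 and Sik1) and 2 in RPF-seq (Junb and Sik1), and only Sik1, at ZT13.09 in RNA (1.58-fold), peaked within the span of the Period genes. Fos and Egr1 missed the call, with RNA folds of 1.82 and 2.36.

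Of 7 heat shock genes driven by HSF1, 7 were called in RNA-seq and 6 in RPF-seq. All had fitted RNA peaks later than that of Per2, from ZT15.38 (Hspa1b, SE 1.16 h) to ZT20.26 (Hsp90aa1, SE 0.43 h). Their order relative to Per2 was not tested, and for Hspa1b the distance from Per2 (ZT14.65) was within its SE. Hspa1a and Hspa1b are near-identical copies whose reads may be shared. Across the 8 lists, 31 of 42 genes tested were called in RNA-seq and 28 in RPF-seq, where 10.2% and 7.58% of all genes tested were called, with median fitted folds of 1.88 and 2.01, against medians of 1.20 and 1.18 over all genes tested. A TE rhythm was called for 11 of the 42, against 17.1% of all genes tested, a background that was lost with either replicate alone, and among the 11 were Cry1 (1.22-fold, adjusted p = 0.028) and Nr1d2 (1.28-fold, adjusted p = 0.037).

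The genes whose profiles were most like each Period gene were found by Pearson correlation of log2(RPKM + 0.1) over the 24 libraries of an assay. For Per1 RNA these were Usp2, a deubiquitinase gene (r = 0.961), Tob2 (0.915), Slc6a20a (0.885), Coq10b (0.882) and Smagp (0.865). For Per1 footprints they were Coq10b (0.915), the mitotic kinase gene Wee1 (0.888), Usp2 (0.888), Snrk (0.882) and Slc7a9 (0.874). Usp2 and Coq10b were thus near Per1 in both assays, with RNA peaks at ZT12.52 and ZT13.29 and fitted RNA folds of 2.09 and 2.19, smaller than that of Per1.

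For Per2 RNA the nearest genes were the adenylate kinase gene Ak4 (r = 0.936), Tsc22d3 (0.929), the prion protein gene Prnp (0.915), the aquaporin gene Aqp11 (0.913) and Wee1 (0.906). For Per2 footprints they were Tsc22d3 (0.942), Wee1 (0.921), Ak4 (0.914), Prnp (0.911) and Ripk4 (0.904), so 4 of 5 were shared between the assays. For Per3 RNA they were Tef (0.971), Dbp (0.940), the epoxide hydrolase gene Ephx1 (0.938), the cystine transporter gene Slc7a9 (0.919) and Ciart (0.908). For Per3 footprints they were Tef (0.944), Bhlhe41 (0.941), Dbp (0.923), the carbonic anhydrase gene Car14 (0.908) and Ephx1 (0.901).

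Among the Period genes themselves, Per1 and Per3 were the most alike in RNA (r = 0.896), followed by Per1 and Per2 (0.754) and Per2 and Per3 (0.685). The order was the same in footprints, at 0.847, 0.774 and 0.630. All of these coefficients describe 24 libraries that share a 24-h cycle, and no p-value is attached to them.

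The tissue label was checked with marker genes. The kidney markers described here were present in every library, from Aqp2 of the collecting duct (mean RNA 124 RPKM) through Umod of the thick ascending limb (2607 RPKM) to Kap of the proximal tubule (46800 RPKM). None of 6 adrenal markers was listed in both assays. Of 4 liver markers, Alb ranged from 4.72 to 24.4 RPKM in RNA and was the 1 called rhythmic, and Ttr averaged 288 RPKM. Alb RNA peaked at ZT23.80 (1.83-fold) and Alb footprints at ZT15.62 (2.14-fold), and its TE was called as well (3.31-fold, limma adjusted p = 0.0071). Aqp2 was itself called rhythmic in both assays, with an RNA peak at ZT14.76, and the part of cell composition in the Period profiles was not tested.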

How the data were processed

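The members and gene lists were chosen with earlier results of these data known. Per the labels and the study's methods, the authors trimmed reads with cutadapt, selected them by size, mapped them with Bowtie2 2.2.1 and TopHat2 2.0.11 to mouse GRCm38.p2, counted reads in coding sequences and deposited RPKM values per gene for each library, normalised for library size. No counts were used, and depth was estimated from the RPKM step of 1 read (tolerance 0.05). Here, 12423 genes with values in both assays were kept, 12373 of them with a symbol, and the 11863 with a median of at least 0.5 RPKM in each assay were tested. Rhythms were F-tests on a 24-h cosine of log2(RPKM + 0.1) in limma 3.58.1 (R 4.3.3) with Benjamini-Hochberg adjustment. TE was the difference of the log2 values. Peak times used the cosine per gene. Standard errors kept the covariance within a pool, and 95% intervals were from the delta method. Profiles scaled to their fitted amplitude were swapped within pools 100000 times, and level differences were sign-flipped 100000 times. Named genes were the Period genes, the listed genes and the 5 tested genes of highest correlation with each Period gene in each assay. Scripts were tested on simulated data. Upstream windows came from RefSeq. Per2 had no entry there. Some listed genes are not reported here.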

Additional observations from a re-analysis of the deposited data

How the results depend on the processing

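Of 210 recomputed values for 30 results on the Period genes, 191 kept their direction and their side of the threshold, and none reversed. Part of this count was fixed in advance. A peak-to-trough fold has no direction to reverse, and the RPKM minimum and the Akaike criterion leave the fitted folds as they were. In this balanced design the replicate block also returned the same peak-time differences and p-values. The RNA and RPF rhythms of Per1, Per2 and Per3 were called under each alternative run, except that Per3 gave no value at a median of at least 2 RPKM. Numbers of genes called moved to 781 (RNA) and 590 (RPF) with a pseudocount of 1, and TE calls to 6354 with the Akaike criterion, which applies no adjustment. With replicates left out in turn, calls ranged from 722 to 1430 in RNA, from 370 to 853 in RPF and from 0 to 2 in TE (1858 and 2545 at an unadjusted limma p below 0.05), with fewer samples. The TE rhythm of Per1 (1.28-fold) was chosen by the Akaike criterion, and that of Per3 (1.72-fold) passed with a pseudocount of 1. The Per1 lag was 0.50 h on linear RPKM and 0.23 h with a 12-h harmonic, and 0.34 to 0.94 h with replicates left out. With the harmonic the differences called with the cosine missed the threshold: in RNA, 2.15 h (Per2 minus Per1) and 2.87 h (Per2 minus Per3), and in RPF, 1.23 h (Per1 minus Per3), 2.13 h (Per2 minus Per1) and 3.36 h (Per2 minus Per3). The cause was not tested. With replicates left out, in RPF, Per1 minus Per3 ranged from 0.99 to 1.77 h and Per2 minus Per1 from 1.5 to 2.21 h. The RNA level of Per3 over Per1 passed as a ratio of means (log2 0.22) and with a pseudocount of 1 (0.15). With replicates left out, log2 levels of Per1 minus Per2 ranged from −0.70 to −0.53 (RNA) and −0.42 to −0.19 (RPF), Per3 minus Per2 from −0.53 to −0.38 (RNA), and Per1 TE against all genes from −0.29 to −0.12.

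Whether replicate numbers mark a shared origin, such as a day of collection, is not known. The paper describes collection over 2 daily cycles, and the sample titles give only a replicate number. Deviations of the same number at different time points correlated above 0.1 in 13 of 66 pairs in RNA and 10 of 66 in RPF. Their mean correlation was 0.029 in RNA (from −0.181 to 0.480) and 0.020 in RPF (from −0.204 to 0.185). A replicate block gave 1214 calls in RNA, 895 in RPF and 2161 in TE, and changed no call on a Period gene. Depth limits Per3 footprints most, and no difference between time points was tested singly, since exact tests of 2 against 2 pools cannot pass 0.05.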
